A study of Mus musculus with 374 samples.

Results

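Malat1, Neat1, Gas5, Meg3 and Kcnq1ot1 are genes of long noncoding RNAs that stay in the nucleus or act as regulators, and these 5 names, out of 19829 mouse genes, were chosen by name for that property. Earlier results of these data were known when the 5 genes were chosen. Counts of 4 of the 5 genes are described here, and Meg3 is not analysed here. The 374 single cells came from 1 C57BL/6 female mouse aged 10 to 13 weeks and were sorted into the wells of 1 plate for CEL-seq2, a method that primes RNA at A-rich stretches with oligo-dT, reads near the 3′ end and counts molecules by random tags (unique molecular identifiers, UMIs). Bone marrow gave 44 B lymphocytes (B220+, FSC-A low), 96 granulocytes (Mac1+ Gr1+), 96 erythroblasts (Ter119+ CD44+, FSC-A mid to high) and 95 progenitor/stem cells (Lin- Kit+ Sca1+, LSK), and the thymus gave 43 T lymphocytes (CD3+, FSC-A low). The cells were untreated and shared 1 genotype, so the comparison is between cell types, and each population is 1 sample.

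Long noncoding RNAs are transcripts that are not translated into protein. Malat1 collects in nuclear speckles, bodies rich in splicing factors, and Neat1 is the scaffold around which paraspeckles form. Gas5 carries small nucleolar RNAs (snoRNAs) in its introns, and its spliced RNA is known for building up in growth-arrested cells. Kcnq1ot1 is transcribed from the paternal chromosome only, antisense to Kcnq1, and silences neighbouring imprinted genes in cis.

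UMIs were summed over the cells of a population and scaled to counts per 1000000 UMIs on mouse genes (CPM). The sums were 135808 UMIs in B lymphocytes, 200396 in T lymphocytes, 403506 in granulocytes, 666728 in erythroblasts and 834812 in LSK cells, and the median per well ranged from 3028.5 in B lymphocytes to 7959 in LSK cells. CPM is a share, so a lower level of a gene and a higher level of other RNAs cannot be told apart from it: the adult haemoglobin genes took 23.5% of the erythroblast UMIs and at most 2.83% elsewhere, and the single gene Gm42418 took 8.59% in erythroblasts and 22.7% in B lymphocytes. For each population all of its 6 to 8 marker genes had their highest CPM there, and the markers of 1 population summed to between 0.985% and 11.8% of their own level in the others. Intervals given below are 95% exact intervals and cover counting error only, and with 1 mouse no p-value was computed.

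Malat1 and Neat1 are neighbours. In GENCODE M21 (GRCm38) Malat1 lay at chr19:5795690-5802672 and Neat1 at chr19:5824708-5845478, both on the minus strand, with 22035 bases between them, and each has 1 exon over its whole length in the longest transcript. The long form of Neat1 and Malat1 are known to end in a folded structure, cut by RNase P, in which U-rich stretches clasp a genome-encoded A-rich tail. The following 2 sequences are shown because they hold this end of both RNAs. Malat1 is given over bases 6576 to 6691 of Malat1-201 (chr19:5795982-5796097) and Neat1 over the last 100 bases of Neat1-201 (chr19:5824708-5824807), 5′ to 3′ on the minus strand, and capitals mark the 3 runs of 9 or more bases that stand in both.
Malat1-201: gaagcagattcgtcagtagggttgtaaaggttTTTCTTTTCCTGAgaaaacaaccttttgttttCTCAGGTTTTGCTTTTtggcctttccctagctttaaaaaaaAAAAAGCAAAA
Neat1-201: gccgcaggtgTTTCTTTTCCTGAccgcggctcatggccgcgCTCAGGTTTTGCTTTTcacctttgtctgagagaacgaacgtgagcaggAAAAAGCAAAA
The 3 shared runs were 13, 16 and 11 bases long and stood in the same order in both RNAs, 2 of them rich in T and the last in A.

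The short form of Neat1 ends differently. The last 60 bases of Neat1-202 (chr19:5842307-5842366, minus strand) hold the polyadenylation signal, here in capitals.
Neat1-202: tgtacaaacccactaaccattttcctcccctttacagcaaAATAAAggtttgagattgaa
Kcnq1ot1 lay at chr7:143203458-143296549 on the minus strand, within Kcnq1, as 1 unspliced exon of 93092 bases. It held 10 runs of 10 or more A, the longest of 41, whereas Malat1-201 held 1, of 12, and none stood in the annotated transcripts of Neat1 and Gas5. The longest run of Kcnq1ot1 (chr7:143226915-143227015, minus strand, with 30 bases on either side) is given with its A tract in capitals.
Kcnq1ot1-201: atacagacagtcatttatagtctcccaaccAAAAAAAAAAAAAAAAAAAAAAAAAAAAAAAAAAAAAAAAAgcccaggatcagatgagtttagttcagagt
Gas5 lay at chr1:161034422-161038539 on the plus strand and held 9 snoRNA genes. The position of each UMI along these RNAs was not analysed here, so which of these A-rich stretches was primed was not tested, and the forms of Neat1 were counted together.

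Malat1 was highest in lymphocytes as a share of all UMIs. It gave 9156 UMIs, rank 11 by UMI count (not scaled to length) among all mouse genes, and at least 1 UMI in 372 of 374 wells, and the 2 wells without one were granulocyte wells with under 1000 UMIs in total. Its CPM was 7385 (interval 6935 to 7857) in B lymphocytes, 7405 (7033 to 7792) in T lymphocytes, 4231 (4093 to 4373) in LSK cells, 3680 (3495 to 3872) in granulocytes and 2478 (2360 to 2600) in erythroblasts. Of the 10 pairs of populations, the B and T lymphocytes were the only one whose ratio could not be told from 1 by counting error (0.997, interval 0.920 to 1.08). The T lymphocytes stood 2.99-fold (2.78 to 3.21) above the erythroblasts.

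**Figure D1:**
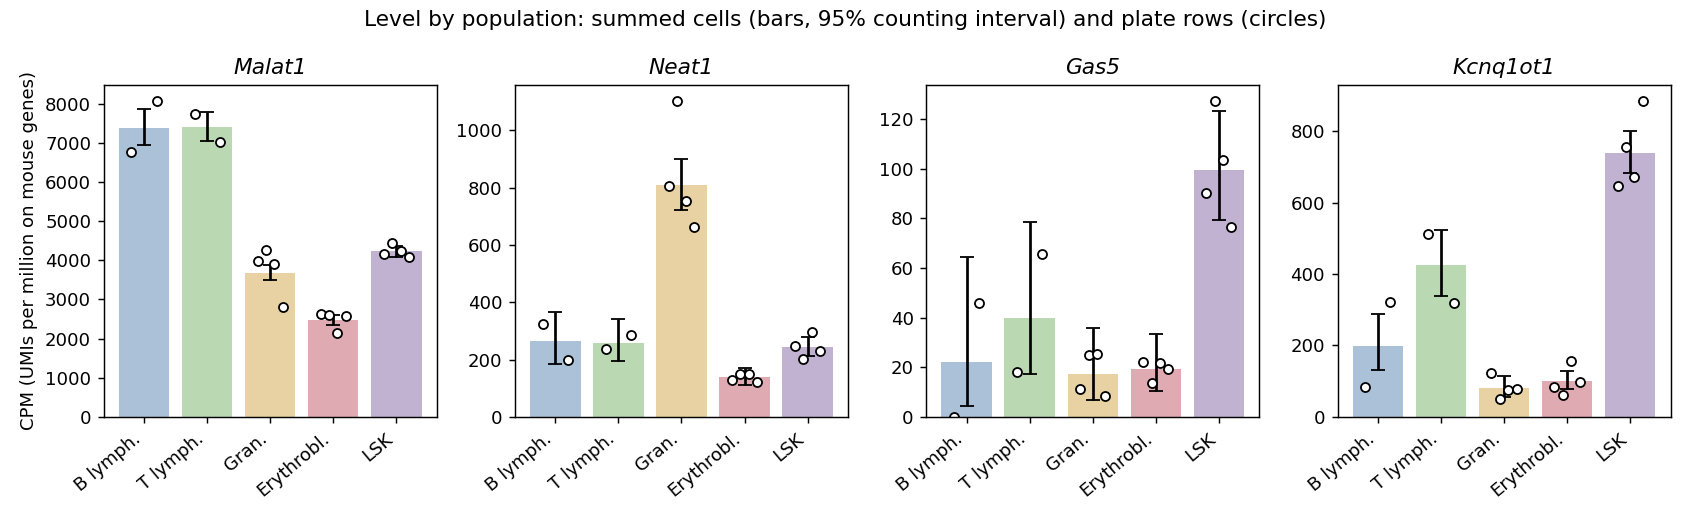
Level of Malat1, Neat1, Gas5 and Kcnq1ot1 in CPM on the vertical axis (each panel has its own scale) for the 5 sorted populations. Bars are sums over all cells, error bars the 95% exact Poisson interval, and open circles the sums of single plate rows. Malat1 was highest in both lymphocyte populations, Neat1 in granulocytes, and Gas5 and Kcnq1ot1 in LSK cells.

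A 2-fold difference in CPM was common among genes at large, so it was read against all genes with at least 50 UMIs in the pair. Malat1 passed it in 4 pairs, those of each lymphocyte population with granulocytes and with erythroblasts, where 50.0% (B with granulocytes), 50.1% (B with erythroblasts), 52.9% (T with granulocytes) and 51.4% (T with erythroblasts) of all genes did. B over granulocytes (2.01, interval 1.85 to 2.18) and T over granulocytes (2.01, 1.87 to 2.16) stood at the edge of that size. Over LSK cells, Malat1 was 1.75-fold (1.63 to 1.87) higher in B and 1.75-fold (1.65 to 1.86) higher in T lymphocytes, while the median gene was lower in the lymphocytes, by 0.44 and 0.22 on the log2 scale. The ratio of Malat1 exceeded that of 91.2% of genes in B over LSK and of 88.5% in T over LSK.

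This order belonged to Malat1 as a share of the UMIs of a cell. As a number of UMIs per well, which is not scaled to depth, Malat1 averaged 37.2 ± 16.8 (SD over 95 wells) in LSK cells, 34.5 ± 13.5 (43 wells) in T lymphocytes, 22.8 ± 11.5 (44 wells) in B lymphocytes, 17.2 ± 10.1 (96 wells) in erythroblasts and 15.5 ± 7.98 (96 wells) in granulocytes. On that scale LSK cells stood 1.63-fold (1.52 to 1.75) above B lymphocytes and 1.08-fold (1.01 to 1.15) above T lymphocytes. These intervals leave out the spread between wells. The variance of Malat1 over wells was 5.81 times what counting at each well's depth would give in LSK cells. It was 6.05 times in B and 3.85 times in T lymphocytes. Relative to the ERCC spike-in RNA counted in the same wells, there were 79.4 Malat1 UMIs per 1000 ERCC UMIs in LSK cells and 74.9 in T lymphocytes, a ratio of 1.06 (0.998 to 1.13). With TMM factors, which align the bulk of genes between populations, LSK cells were the lowest of the 5 and no pair differed 2-fold. The position of LSK cells against lymphocytes thus turned with the scaling, whereas granulocytes and erythroblasts were below both lymphocyte populations by CPM, with TMM, per ERCC UMI and per well.

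**Figure D2:**
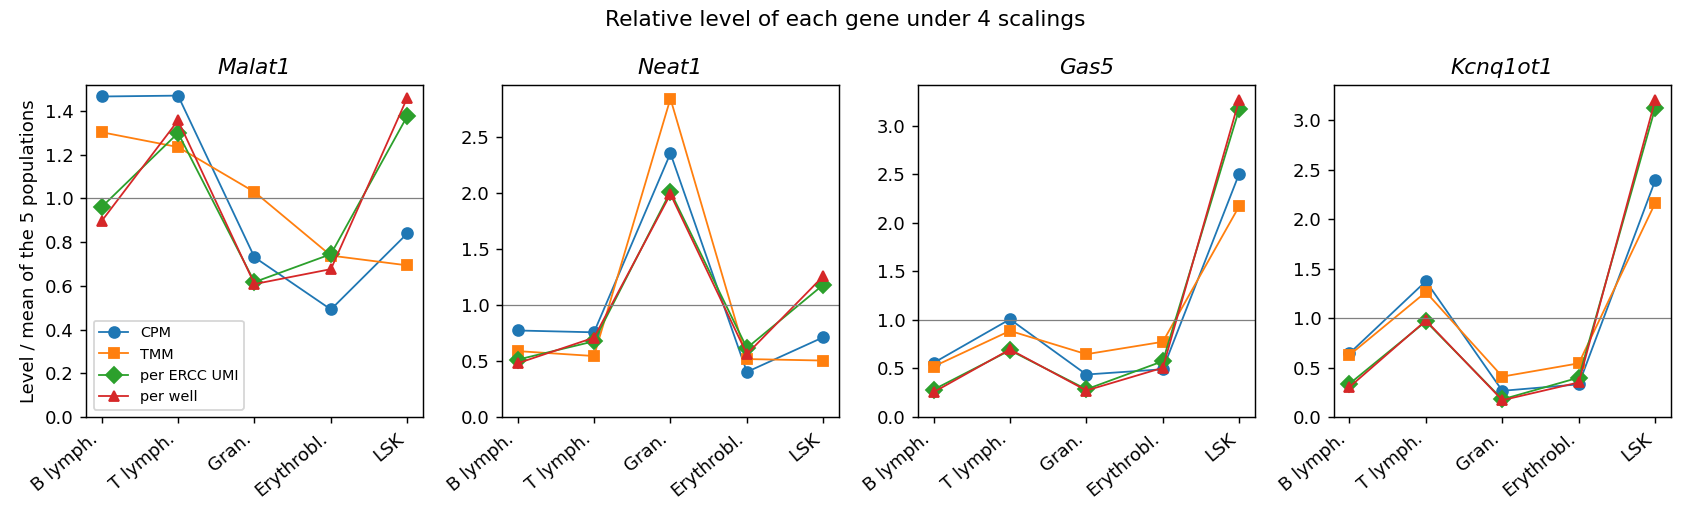
Level of each RNA divided by its mean over the 5 populations (vertical axis) for CPM, TMM-scaled counts, UMIs per ERCC UMI and UMIs per well (lines joining populations are for the eye only). The granulocyte peak of Neat1 and the LSK peaks of Gas5 and Kcnq1ot1 stood under all 4 scalings, while Malat1 in LSK cells moved from the lowest of the 5 with TMM to the highest per well.

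Plate rows, which hold up to 24 wells each, gave a measure of spread within a population. Malat1 ranged from 4094 to 4434 CPM over the 4 rows of LSK cells, from 2137 to 2641 over the 4 rows of erythroblasts, and from 7009 to 7736 in the 2 rows of T lymphocytes. In granulocytes 3 rows lay between 3917 and 4272 CPM and the fourth, row J, at 2808. Without overlap, every lymphocyte row lay above every row of the other 3 populations. Among wells with at least 1000 UMIs, the well CPM had a median of 7820 in T lymphocytes (range 2297 to 13761) and of 2429 in erythroblasts (505 to 6820).

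Genes annotated inside Malat1 share its reads or its locus. Gm27694, on the same strand, had 367 UMIs, and Gm37376, on the opposite strand, had 128. The CPM of Gm27694 was 353 in B lymphocytes, 364 in T lymphocytes, 136 in granulocytes, 109 in erythroblasts and 141 in LSK cells, the same order as Malat1 itself. Whether strand was used in counting is not given in the sources used here, so reads of Malat1 and of Gm37376 cannot be told apart. With both genes added, Malat1 came to 7879 CPM in B lymphocytes, 7859 in T lymphocytes, 4435 in LSK cells, 3864 in granulocytes and 2617 in erythroblasts.

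Neat1 was highest in granulocytes. It gave 326 of its 710 UMIs there, 808 CPM (723 to 901), against 265 (186 to 367) in B lymphocytes, 259 (194 to 340) in T lymphocytes, 244 (212 to 280) in LSK cells and 138 (111 to 169) in erythroblasts. Granulocytes thus stood 3.05-fold (2.16 to 4.43) above B lymphocytes, 3.11-fold (2.32 to 4.26) above T lymphocytes, 3.31-fold (2.77 to 3.96) above LSK cells and 5.86-fold (4.63 to 7.46) above erythroblasts. Among genes at large 66.4% differed 2-fold either way between granulocytes and erythroblasts and 56.3% between granulocytes and LSK cells, and the median gene was lower in granulocytes than in LSK cells by 0.76 on the log2 scale. The Neat1 ratio of granulocytes over LSK cells exceeded that of 92.4% of genes. B lymphocytes, T lymphocytes and LSK cells could not be told apart by counting error, with ratios between 1.02 and 1.08 by CPM, and erythroblasts lay below each of them. That part of the order turned with the scaling. LSK cells stood 2.31-fold (1.61 to 3.39) above B and 1.75-fold (1.28 to 2.42) above T lymphocytes per ERCC UMI, where B lymphocytes were the lowest, as they were per well, and LSK cells were the lowest with TMM factors. Erythroblasts were the lowest under 7 of 13 alternatives.

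Granulocytes were also the highest under all 13 alternative ways of counting or scaling Neat1. Per well the lead over LSK cells was 1.58-fold (1.32 to 1.89), with 3.40 ± 2.69 UMIs (SD over 96 wells) in granulocytes and 2.15 ± 1.76 (95 wells) in LSK cells, although LSK wells were deeper. At least 1 UMI of Neat1 was found in 87.5% of granulocyte wells (79.2 to 93.4) and in 81.1% of LSK wells (71.7 to 88.4), and after each well was thinned to 1000 UMIs, in 51.1% (40.5 to 61.5) and 27.4% (18.7 to 37.5). All 4 granulocyte rows, from 661 to 1102 CPM, lay above every row of the other populations, the highest of which was 326 in B lymphocytes. Markers of granulocytes reached 4.41% of their granulocyte level in B lymphocytes and less in the others, while Neat1 stood there at 32.8% of its granulocyte level and between 17.1% and 32.1% in the others.

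The genes of proteins that assemble on Neat1 in paraspeckles were lowest where Neat1 was highest. Of the 8 genes listed for them, 6 were measured with at least 50 UMIs, and all 6 had their lowest CPM in granulocytes, where 33.3% of the 6317 genes with at least 50 UMIs were lowest. Among the 6, Pspc1 reached 50 UMIs only with those of LSK cells. It had 7 UMIs in granulocytes, and its LSK over granulocyte ratio could not be told from 1 (1.66, 0.693 to 4.55). Sfpq, an RNA-binding protein essential for paraspeckles, had 211 CPM in granulocytes and 432 to 679 in the other populations, and its partner Nono had 52.0 against 58.5 to 189. For Nono the granulocyte level rests on 21 UMIs and that of erythroblasts, the next lowest, on 39. Tardbp, which encodes the RNA-binding protein TDP-43, had 119 against 189 to 355, and Cpsf6, a subunit of the cleavage factor that steers polyadenylation of Neat1, 99.1 against 130 to 280. With TMM factors 4 of the 6 were lowest in granulocytes, beside 21.4% of all genes, and per well all 6, beside 37.1%.

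Within granulocytes, wells with more Malat1 also had more Neat1. Over the 94 granulocyte wells with at least 1000 UMIs, the shares of the 2 RNAs had a Pearson r of 0.54 and a Spearman rho of 0.50, whereas r was 0.05 in B lymphocytes (43 wells), 0.10 in T lymphocytes (42 wells), 0.13 in erythroblasts (95 wells) and 0.13 in LSK cells (95 wells). The wells of a population share 1 mouse, 1 plate and, for both RNAs, the total that divides them, and the wells with a high share were shallow. Malat1 had a rho of -0.63 and Neat1 of -0.42 with the total UMIs of the well in granulocytes, and with total UMIs held fixed by rank the rho between both RNAs was 0.34. After thinning to 1000 UMIs it was 0.35 in granulocytes and at most 0.11 in the other populations.

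**Figure D3:**
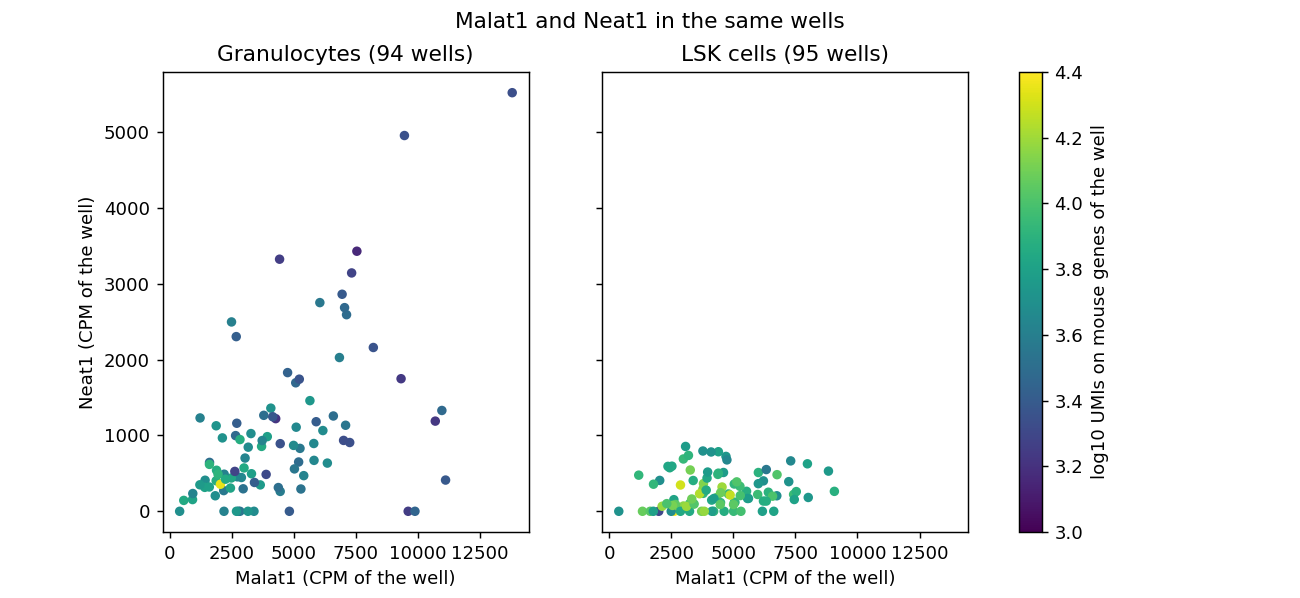
Malat1 (horizontal axis) against Neat1 (vertical axis) in CPM of the same well for the 94 granulocyte wells and the 95 LSK wells with at least 1000 UMIs, coloured by depth on a log10 scale. In granulocytes the wells rich in both RNAs were the shallow ones, and in LSK cells Neat1 stayed low over the whole range of Malat1.

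The granulocyte wells rich in Malat1 differed in other readouts too. Malat1 rose with side scatter (SSC-A, a measure of cell granularity recorded at the sort) with a rho of 0.56 and Neat1 with a rho of 0.38, while rho with side scatter lay between -0.28 and 0.04 for Malat1 in the other populations. The 8 marker genes of granulocytes were set beside Malat1 in the same wells, and they did not all go one way. Summed, they had a rho of -0.34 with Malat1, or -0.32 with total UMIs held fixed by rank. The granule protein genes Camp, Ltf, Ngp and Lcn2 had a rho of -0.50, -0.46, -0.45 and -0.36 with Malat1, while Mmp8, a collagenase of the same granules, had 0.25. The rho was -0.23 with S100a8 and -0.20 with S100a9, the subunits of calprotectin, and 0.56 with Retnlg, a gene of late granulocytes. With total UMIs held fixed, Camp came to -0.30, Mmp8 to 0.17 and Retnlg to 0.36. For Neat1 the 8 markers had the same signs, with a rho of 0.39 for Retnlg, 0.22 for Mmp8 and -0.32 for Camp, becoming 0.23, 0.15 and -0.15. The part of depth in these relations was not tested further.

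**Figure D4:**
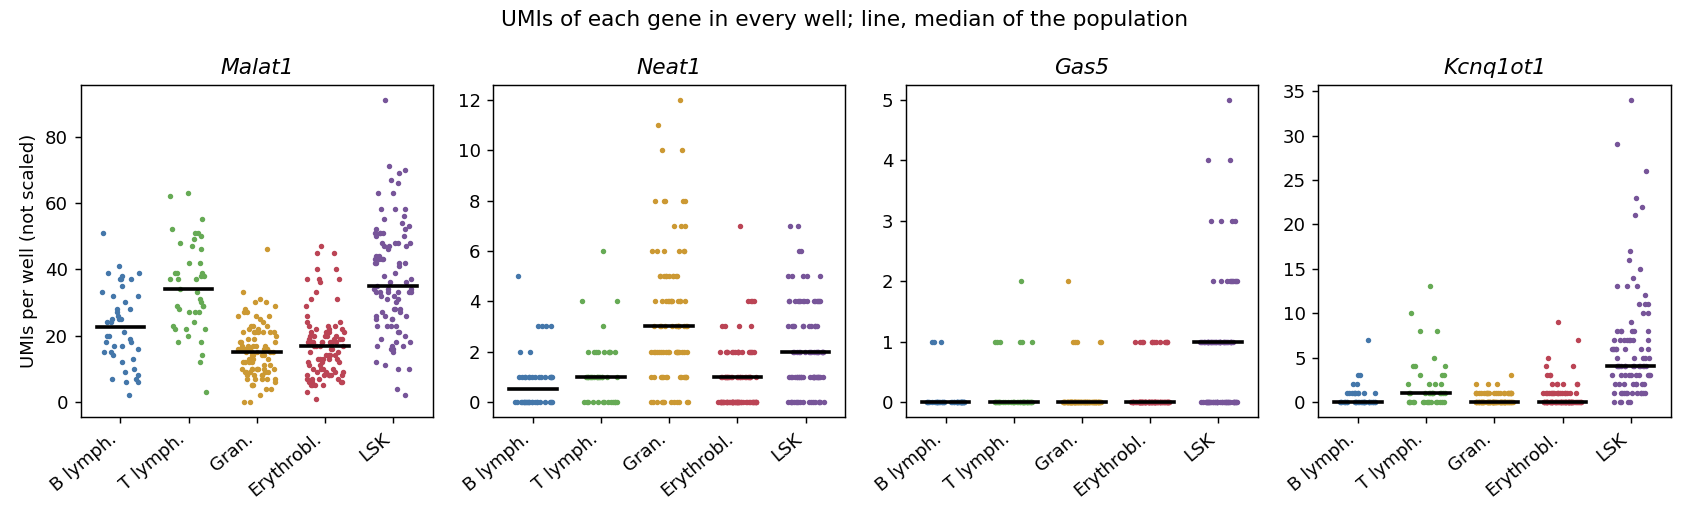
UMIs per well (vertical axis, not scaled to depth, each panel with its own scale) of the 4 RNAs, with 1 point for each of the 374 wells and a line at the median of the population. Kcnq1ot1 reached 34 UMIs in an LSK well with a median of 4, and Gas5 had a median of 1 in LSK cells and 0 in the other populations.

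Kcnq1ot1 was highest in LSK cells, with T lymphocytes second. LSK cells held 617 of its 830 UMIs, 739 CPM (682 to 800), followed by T lymphocytes with 424 (339 to 524), B lymphocytes with 199 (131 to 289), erythroblasts with 102 (79.2 to 129) and granulocytes with 81.8 (56.3 to 115). The lead of LSK cells was 9.04-fold (6.37 to 13.2) over granulocytes, 7.25-fold (5.63 to 9.45) over erythroblasts, 3.72-fold (2.53 to 5.69) over B lymphocytes and 1.74-fold (1.39 to 2.21) over T lymphocytes. Granulocytes and erythroblasts were the only pair that counting error could not tell apart (ratio 0.802, 0.512 to 1.23). The LSK over granulocyte ratio exceeded that of 96.3% of genes, where the median gene was higher in LSK cells by 0.76 on the log2 scale.

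Kcnq1ot1 differed 2-fold in 7 of 10 pairs. Among genes at large that size was reached by 55.7% between erythroblasts and LSK cells, by 34.5% between B lymphocytes and LSK cells, and by 27.6% between B and T lymphocytes, where Kcnq1ot1 was 2.13-fold (1.37 to 3.42) higher in T. The pair of T lymphocytes and LSK cells, in which 26.2% of genes differed 2-fold, was not among the 7 by CPM, while per well LSK cells stood 3.29-fold (2.62 to 4.17) above T lymphocytes. LSK cells were the highest and T lymphocytes the second under all 13 alternatives. LSK markers in T lymphocytes reached 6.51% of their LSK level, whereas Kcnq1ot1 stood there at 57.4%, in B lymphocytes at 26.9%, in erythroblasts at 13.8% and in granulocytes at 11.1%.

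The wells of a population were unequal in Kcnq1ot1. In LSK cells 90 of 95 wells had a UMI, from 0 to 34 per well with a median of 4, and the variance was 4.64 times what counting at each well's depth would give. In T lymphocytes 27 of 43 wells had one, up to 13, and the variance was 4.47 times the counting variance at a mean of 1.98 UMIs per well. Neat1 in LSK cells, at a similar mean of 2.15, was at 1.67 times. Kcnq1ot1 in granulocytes was at 0.865 times, at a mean of 0.344, which leaves little room for an excess. The excess was not particular to Kcnq1ot1. Neat1 in granulocytes was at 3.61 times (mean 3.40), and Malat1 lay between 3.85 times in T lymphocytes and 6.36 times in granulocytes. The relation of Kcnq1ot1 to the depth of LSK wells was weak (rho 0.09), as was that to forward scatter, a measure of cell size (0.05). Plate rows of LSK cells lay between 647 and 885 CPM, above both rows of T lymphocytes (318 and 513) and all rows of the other populations, while the 2 rows of B lymphocytes lay at 84.9 and 322. The rows of B and T lymphocytes thus overlapped. Well B1 held 25.9% of the Kcnq1ot1 UMIs of B lymphocytes, and well O10 15.3% of those of T lymphocytes.

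The genes near Kcnq1ot1 were counted next. Of 10 listed genes of the imprinted Kcnq1 domain, 9 were measured and 4 had at least 50 UMIs, 3 of which were highest in LSK cells, beside 31.9% of all 6317 genes. Among the 4, Tssc4 reached 50 UMIs only with those of LSK cells, and 2 of the other 3 were highest there. With TMM factors 2 of the 4 were highest in LSK cells and 2 in erythroblasts, beside 18.1% and 35.2% of all genes. Tspan32, a tetraspanin of blood cells, had 231 CPM in LSK cells and 215 in T lymphocytes, and Nap1l4, a histone chaperone, had 147 in LSK cells and 185 in T lymphocytes. Cd81, a tetraspanin, had 144 in LSK cells and Tssc4 37.1. Cdkn1c, which encodes the cell cycle inhibitor p57 and is one of the genes that Kcnq1ot1 silences on the paternal chromosome, had 12 of its 13 UMIs in LSK cells (14.4 CPM), so both RNAs were found in the same population, and the chromosome of origin cannot be read from these counts. Of the other imprinted genes, Sgce had 24 of its 25 UMIs (28.7 CPM) and Grb10 12 of its 14 (14.4 CPM) in LSK cells, the population with the most UMIs. In shallower populations 1 UMI weighs more: that of Grb10 in B lymphocytes came to 7.36 CPM and that of Cdkn1c in T lymphocytes to 4.99. Gnas was at 945 CPM in LSK cells and 563 to 826 in the others, and Igf2r was highest in T lymphocytes at 120 CPM. Of the Dlk1 to Dio3 domain that holds Meg3, Dlk1 had 1 UMI in all.

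Gas5 was highest in LSK cells. They held 83 of its 114 UMIs, 99.4 CPM (79.2 to 123), and T lymphocytes had 39.9 CPM (17.2 to 78.7), B lymphocytes 22.1 (4.56 to 64.6), erythroblasts 19.5 (10.4 to 33.3) and granulocytes 17.3 (6.97 to 35.7). LSK cells stood 5.73-fold (2.66 to 14.7) above granulocytes, 5.10-fold (2.82 to 9.98) above erythroblasts, 4.50-fold (1.49 to 22.3) above B lymphocytes and 2.49-fold (1.21 to 5.96) above T lymphocytes. The ratio to granulocytes moved with the scaling: on the log2 scale it was 2.52 by CPM, 1.75 with TMM factors, 1.59 with median-ratio size factors, 3.48 per ERCC UMI and 3.58 per well. The 4 pairs reached 50 UMIs through LSK cells alone, and all 4 passed 2-fold, beside the 26.2% to 56.3% of genes given above for the pairs with LSK cells. The other 4 populations, with 3 to 13 UMIs each, could not be told apart at this depth.

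A UMI of Gas5 was found in 57.9% of LSK wells (47.3 to 68.0) and in 6.25% of granulocyte wells (2.33 to 13.1). After thinning to 1000 UMIs those shares fell to 7.37% (3.01 to 14.6) and 1.06% (0.0269 to 5.79), and none of the 42 T lymphocyte wells kept one, so per cell the difference was near the limit of the depth. LSK rows lay between 76.5 and 127 CPM and all other rows between 0 and 65.8. Of the genes within Gas5, 8 small RNA genes had 69 UMIs, 47 of them in LSK cells. Adding them brought the locus to 156 CPM (130 to 185) in LSK cells, 79.8 (45.6 to 130) in T lymphocytes, 33.0 (20.7 to 50.0) in erythroblasts, 29.5 (8.03 to 75.4) in B lymphocytes and 27.3 (13.6 to 48.8) in granulocytes.

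Most other snoRNA host genes were also highest in LSK cells by CPM. Of 16 listed, 10 were measured and 7 had at least 50 UMIs, 6 of which were highest in LSK cells and 6 lowest in granulocytes, against 31.9% and 33.3% of all genes. Of the 7, 4 reached 50 UMIs only with those of LSK cells, which favours the count there, and the other 3 were all highest in LSK cells. Zfas1 had 223 CPM in LSK cells and 29.7 in granulocytes, Snhg1 196 and 29.7, Snhg8 125 and 7.43, and Snhg6 88.6 and 7.43. With TMM factors 3 of the 7 were highest in LSK cells, 3 in erythroblasts and 1 in T lymphocytes. Of all genes, 18.1%, 35.2% and 12.7% were highest in these populations with TMM. Lowest in granulocytes with TMM were 5 of the 7, beside 21.4% of all genes. Hosts of this kind are known for a terminal oligopyrimidine (TOP) tract at the start of their RNA, which they share with the messengers of the translation machinery. Of 9 TOP messengers with at least 50 UMIs, 8 were highest in LSK cells, beside 31.9% of all genes. Among the 9, 1 reached 50 UMIs only with those of LSK cells, and of the other 8, 7 were highest there. With TMM factors 4 of the 9 were highest in LSK cells and 5 in erythroblasts, beside 18.1% and 35.2% of all genes. Pabpc1, a poly(A)-binding protein, had 2356 CPM in LSK cells and 805 in granulocytes, Eef2, an elongation factor, 1469 and 401, Rps3, a ribosomal protein, 1338 and 278, and Eef1a1, an elongation factor, 1150 and 181.

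The annotated start of Gas5 and of the host genes Snhg1 and Snhg8 is shown for the pyrimidine runs near it. Sequences are 60 bases from the RefSeq promoter table (GRCm38.p6), on the strand of the gene, with the start of transcription after base 25 and with the run of 6 or more C or T in capitals: Gas5 at chr1:161035141-161035200 (plus), Snhg1 at chr19:8723462-8723521 (plus) and Snhg8 at chr3:123508302-123508361 (minus).
Gas5: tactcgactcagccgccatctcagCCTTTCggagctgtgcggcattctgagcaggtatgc
Snhg1: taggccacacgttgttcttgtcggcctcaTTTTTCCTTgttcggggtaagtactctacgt
Snhg8: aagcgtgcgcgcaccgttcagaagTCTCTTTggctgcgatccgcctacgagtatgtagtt
A run of 6 or more C or T beginning within 10 bases of the start, searched on the strand of the gene only, was found in 6 of the 10 genes among Gas5 and the measured hosts that had an entry, and in 26.2% of the 27025 genes of the table. Gas5 has 2 entries, and the run was in the one shown. The run began 1 base before the annotated first base in Gas5 and Snhg8 and 4 bases after it in Snhg1, whereas a TOP tract begins at the first base of the RNA. A match is a description of the letters and not of a site in use.

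**Figure D5:**
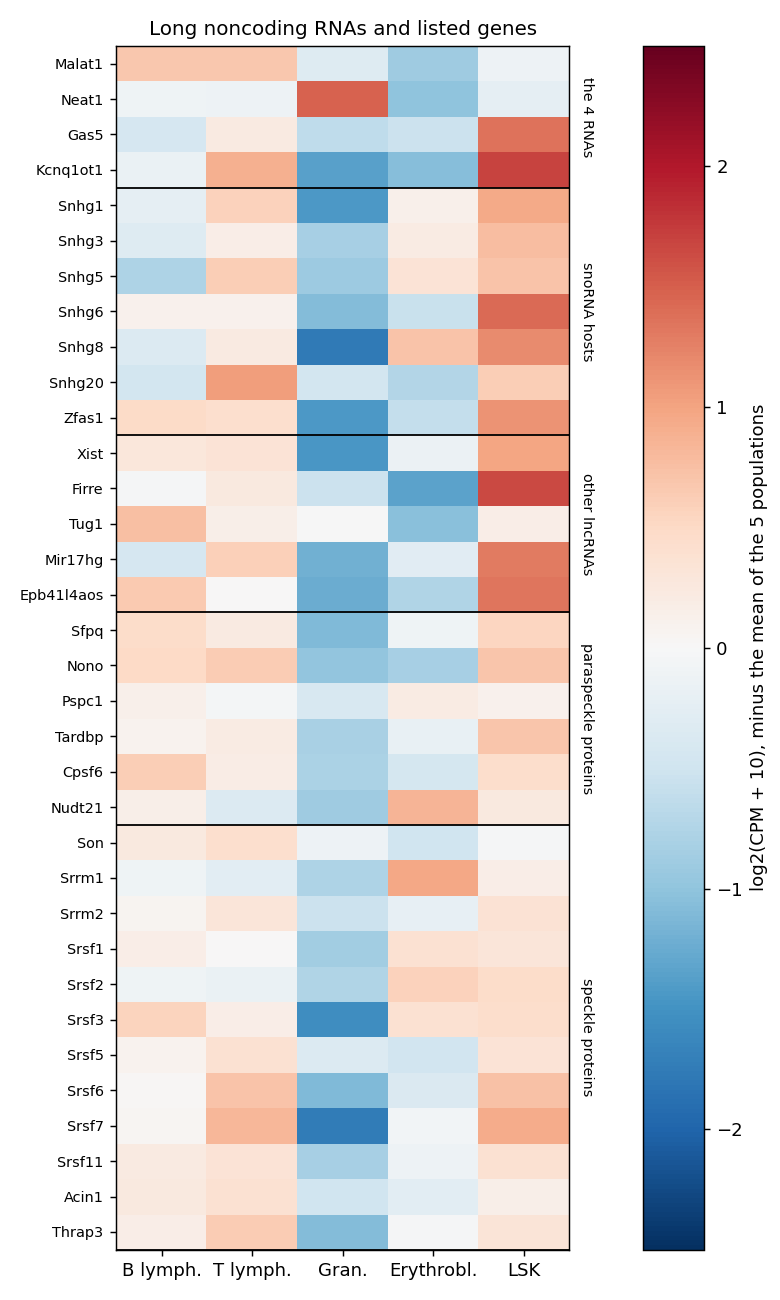
Colour gives log2(CPM + 10) minus its mean over the 5 populations (columns) for the 4 RNAs and, below them, the snoRNA host genes, other long noncoding RNAs and paraspeckle and speckle protein genes with at least 50 UMIs (rows). Granulocytes were low for most rows and high for Neat1, and LSK cells were high for Gas5, Kcnq1ot1 and most host genes.

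Other long noncoding RNAs were mostly too low to be ordered. Of 18 listed, 11 were measured and 5 had at least 50 UMIs, 4 of which were highest in LSK cells, also with TMM factors, beside 31.9% and, with TMM, 18.1% of all genes. As 4 of the 5 reached 50 UMIs only with those of LSK cells, nothing is read from that count, and Xist was the exception. Xist, the RNA that coats the inactive X chromosome, had 1815 CPM in LSK cells, 1119 in B lymphocytes, 1158 in T lymphocytes, 817 in erythroblasts and 325 in granulocytes. Firre, a nuclear RNA of the X chromosome, had 58 of its 67 UMIs in LSK cells, at 69.5 CPM against 0 to 20.0 in the others. Epb41l4aos had 54 of its 69 there, at 64.7 CPM against 2.48 to 36.8, the latter from 5 UMIs in B lymphocytes. Tug1 was highest in B lymphocytes, at 66.3 CPM from 9 UMIs, with 40.7 in LSK cells.

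Of 12 genes of proteins of nuclear speckles, where Malat1 collects, 10 were lowest in granulocytes by CPM and the other 2 in erythroblasts. Among all genes, 33.3% and 37.5% were lowest in these populations. Son, a scaffold of speckles, had 808 CPM in T lymphocytes, 714 in B lymphocytes and 424 in erythroblasts. Malat1 was likewise lowest in erythroblasts by CPM, and under 8 of 13 alternatives. Its B and T lymphocytes could not be told apart by CPM, and T lymphocytes were its highest under 2 of the 13. Srrm2, a further scaffold, had 517 in LSK cells and 275 in granulocytes, Srsf2, a splicing factor, 478 in erythroblasts and 183 in granulocytes, and Srrm1, a splicing coactivator, 541 in erythroblasts and 156 in granulocytes. With TMM factors 6 of the 12 were lowest in granulocytes, beside 21.4% of all genes.

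The genes whose pattern over the 5 populations was most like each RNA were found by the Euclidean distance between centred log2(CPM + 10) values over 1913 genes with at least 200 UMIs. For Malat1 they were 1810026B05Rik (distance 0.16), Kdm5a (0.24) and Ubr3 (0.25), and for Neat1 R3hdm4 (0.46), Cdc42 (0.49) and Psap (0.54). For Gas5 they were Larp1 (0.23), Fkbp4 (0.37) and Hspd1 (0.38), and for Kcnq1ot1 Gm14681 (0.30), Rsl1d1 (0.45) and Mif (0.45). 1810026B05Rik had 214 CPM in B lymphocytes, 235 in T lymphocytes, 104 in granulocytes, 67.5 in erythroblasts and 110 in LSK cells. Larp1, known as a protein that binds TOP messengers, had 317 CPM in LSK cells, 160 in T lymphocytes and 81.8 to 97.5 in the other populations. With 5 populations many genes lie close to any pattern, and 9 of the 12 genes were named again with log2(CPM + 1). These were all 3 for Malat1 and for Gas5, 2 of 3 for Neat1 and only 1 of 3 for Kcnq1ot1.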

How the data were processed

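The authors deposited 1 table of UMI counts per gene and well, as whole numbers with no normalization, made with scPipe. The aligner version, genome build, annotation and use of strand were not stated in the labels or the paper. Wells were tied to their population by the labels, and 9 columns that match no sample were left out. Of 19829 mouse gene IDs, 19755 had a symbol. Coordinates and transcripts are from GENCODE M21 and promoters from RefSeq (GRCm38.p6), a build the authors may not have used.

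Counts were summed per population with Python 3.11.15, numpy 2.4.6, pandas 2.3.3 and scipy 1.17.1 and scaled to CPM on mouse genes, without the 74 ERCC rows. Intervals are exact Poisson (levels), exact conditional binomial (ratios) and exact binomial (shares of wells). Depth was 135808 to 834812 UMIs per population, so that 3 UMIs stand for 22.1 CPM in B lymphocytes and 3.59 CPM in LSK cells. For the ratios of all genes, sums under 3 UMIs were set to 3. The ratio script was checked on simulated counts. TMM factors came from edgeR 4.0.16 (R 4.3.3), which was used for nothing else. Alternatives were other sets of wells, denominators and size factors, ERCC scaling, thinning to 1000 UMIs and counting wells. UMIs per well, and TMM for the gene list sums, were alternatives chosen after seeing the data.

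The RNAs and the gene lists were chosen with earlier results of these data known, and 1 listed gene is not reported here. Named from each list were up to 4 genes with the most UMIs, and for each RNA the 3 genes nearest in pattern. Others (Cdkn1c, the genes inside Malat1, and the granulocyte markers set beside Malat1 and Neat1 within wells) were named after their values had been seen. No well was removed, and doublets were not searched for.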

Additional observations from a re-analysis of the deposited data

How the results depend on the processing

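Among pairwise log2 ratios under the alternatives, 362 stayed within the counting interval and 114 moved out of it. Of the 29 ratios whose interval left out 1, none of the 19 past 2-fold changed sign, and 9 of the 10 under 2-fold did so under at least 1 alternative (5 of Malat1, 3 of Neat1 and 1 of Kcnq1ot1), as in Malat1 in B lymphocytes over LSK cells, 0.80, which became -0.52 per ERCC UMI and -0.71 per well. For Malat1, the log2 ratio of T lymphocytes over erythroblasts, 1.58, became 1.72 without Gm42418 and 1.22 without haemoglobin genes in the denominator, 0.74 with TMM factors, 0.79 with median-ratio size factors, 0.80 per ERCC UMI, 1.37 after thinning, 1.00 as UMIs per well and 0 as the share of wells with a UMI, which was 100% in both. Pairs of Malat1 past 2-fold, 4 by CPM, numbered 2 as a mean over wells, 0 with TMM and 1 with median-ratio factors. They numbered 2 per ERCC UMI and 2 after thinning. These were not always among the 4 by CPM. With median-ratio factors the pair was B lymphocytes over LSK cells (1.13). Per ERCC UMI, granulocytes over LSK cells (-1.16) was 1 of the 2. For Neat1, granulocytes over erythroblasts (2.55) became 2.18 without haemoglobin, 1.71 per ERCC UMI, 1.83 per well and 0.78 as the share of wells. For Kcnq1ot1, LSK cells over granulocytes (3.18) became 2.41 with TMM, 2.24 with median-ratio factors, 4.13 per ERCC UMI, 4.24 per well and 1.70 as the share of wells. The cause of these moves was not tested. Without B lymphocyte well A8, whose Gr1 fluorescence stood apart, Kcnq1ot1 differed 2-fold in 8 pairs in place of 7. Of 9 gene lists, the haemoglobin genes among them, the summed levels of 7 were highest in LSK cells by CPM. This held for 5 without haemoglobin genes in the denominator, for 3 with TMM factors and for 7 per well. Of single genes with at least 50 UMIs, 31.9%, 28.1%, 18.1% and 65.1% were highest in LSK cells in these 4 settings. The thinned ratios of Gas5 that need T lymphocytes had a sum of 0 UMIs there and gave no value. No paired analysis was possible because each population is 1 sample of the same mouse. Gas5 was limited by depth, with 3 to 13 UMIs in 4 of the 5 populations.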
